A study of Mus musculus with 16 samples.

Results

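The genes followed here govern whether a lymphocyte leaves a tissue or stays in it, and were measured in natural killer (NK) cells of tumour-bearing mice: the sphingosine-1-phosphate (S1P) receptors S1pr1, S1pr4 and S1pr5, the transcription factor Klf2, and the surface protein Cd69. They were taken by gene symbol from the deposited table of read counts, where they are 5 of 49671 genes, and all 5 passed the filter on low counts that left 13940 genes for testing. S1P is abundant in blood and lymph and scarce inside tissues, and a lymphocyte that carries S1PR1 follows this gradient out of a lymph node. KLF2 switches on S1pr1 transcription in T cells. CD69 is a lectin-like protein that appears early on activated lymphocytes, binds S1PR1 in the membrane and has it taken into the cell, so that the cell is held back. In mice, NK cells also use S1PR5 to leave the lymph nodes and the bone marrow, while S1PR4 is an S1P receptor found mostly on cells of the blood lineages.

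NK cells, sorted as live CD45+ CD3- NKp46+ DX5+ cells, came from the axillary lymph nodes (LN) that drain the tumour and from the lungs. Every mouse was FVB/N with the genotype Cdh1F/F;Trp53F/F;Foxp3GFP-DTR, in which cells that express Foxp3, chiefly regulatory T cells, carry the diphtheria toxin receptor, and every mouse bore an orthotopic KEP mammary tumour transplant of 100 mm2. The 4 groups of 4 libraries were LN NK cells after diphtheria toxin (DT, 25 µg at T=0 and T=7), LN NK cells after PBS at the same times, lung NK cells after DT and lung NK cells after PBS. The unit of T and the mice's age and sex are not stated, no group here received DT without carrying the receptor, and the lungs alone were digested with an enzyme and treated to lyse red cells. Tissue and digestion therefore cannot be told apart in any comparison of lung with LN. Libraries were made by a Smart-seq2 protocol, which reads full-length transcripts without marking the strand, from samples of 5-10K cells.

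On GRCm38 all 5 are protein-coding genes. S1pr1 (ENSMUSG00000045092) lies at chr3:115710433-115715072 on the minus strand. S1pr4 (ENSMUSG00000044199) lies at chr10:81497745-81500132 and S1pr5 (ENSMUSG00000045087) at chr9:21242912-21248443, both on the minus strand. Klf2 (ENSMUSG00000055148) lies at chr8:72319033-72321656 on the plus strand. Cd69 (ENSMUSG00000030156) lies at chr6:129267325-129275436 on the minus strand, among other C-type lectin genes. The 3 receptor genes have 2 exons (S1pr1), 1 exon (S1pr4) and 3 exons (S1pr5), and their longest annotated proteins have 382, 386 and 400 residues.

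The promoters of Klf2, S1pr5 and S1pr4 are shown because 1 is the gene for the transcription factor and the others are receptor genes, so that the letters such a factor could read can be seen next to the expression values. RefSeq promoters (build GRCm38.p6, the 250 bases before RefSeq's start of the gene) were at hand for these 3 of the 5 genes. Capitals mark matches to a MEF2-type site, a sequence of the kind bound by MEF2 proteins that reads the same on both strands, or to CACCC on either strand, the core of sites bound by Krüppel-like factors. The MEF2-type site is the first run of capitals in the Klf2 window, and all other capitals are CACCC or its reverse complement. The motifs do not overlap here. The windows are chr8:72318812-72319061 (plus strand) for Klf2, chr9:21248444-21248693 (minus strand) for S1pr5 and chr10:81500138-81500387 (minus strand) for S1pr4. The RefSeq start of Klf2 lies 29 bases inside the gene as positioned above, so that the end of its window, with the CACCC match, lies within that gene.
Klf2: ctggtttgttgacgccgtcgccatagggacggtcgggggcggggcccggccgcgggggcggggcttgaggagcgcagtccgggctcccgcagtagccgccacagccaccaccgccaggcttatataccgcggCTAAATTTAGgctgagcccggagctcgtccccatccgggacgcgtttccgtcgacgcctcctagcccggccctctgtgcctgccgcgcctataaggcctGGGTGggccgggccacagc
S1pr5: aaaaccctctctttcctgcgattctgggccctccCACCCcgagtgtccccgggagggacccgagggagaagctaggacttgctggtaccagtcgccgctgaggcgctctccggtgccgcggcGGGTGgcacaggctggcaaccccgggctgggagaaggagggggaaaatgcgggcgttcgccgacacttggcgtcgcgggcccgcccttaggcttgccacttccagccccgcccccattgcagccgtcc
S1pr4: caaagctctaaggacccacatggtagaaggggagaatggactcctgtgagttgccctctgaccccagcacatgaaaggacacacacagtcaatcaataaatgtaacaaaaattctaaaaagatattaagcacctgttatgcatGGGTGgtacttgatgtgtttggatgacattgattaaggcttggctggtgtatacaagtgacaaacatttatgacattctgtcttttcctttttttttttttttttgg
The MEF2-type site stood once in the Klf2 window, 118 to 109 bases before the RefSeq start, and in 0.03957% of the 32851 mouse promoters of this length (13 promoters). CACCC was no rarity: 52.01% of the same promoters held it on one strand or the other. It was found once in Klf2, at 2 places in S1pr5 and once in S1pr4. The Klf2 and S1pr5 windows are rich in G and C (71.2% and 69.2% of bases), and the S1pr4 window is not (38.8%). The MEF2-type letters were chosen because this form is known from the Klf2 promoter, so that finding them there is no result. A match in letters describes the sequence and shows no binding.

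Total counts per library lay between 3929560 and 10744934. Per library the counts were 84 to 912 for S1pr1, 86 to 4446 for S1pr4, 467 to 6047 for S1pr5, 177 to 1647 for Klf2 and 1068 to 11993 for Cd69, so the spread between libraries and not the counting limits these values. Both DT libraries numbered 1, from LN and from lung, stood apart from the other 14: Malat1, a nuclear RNA, stood at 18216 and 17164 counts per 1000000 (CPM) in them, against at most 8511 CPM in the others. In these libraries genes rich in G and C were low and genes rich in A and T were high. The median gene differed from the other 3 DT libraries of its tissue by 0.71 (LN) and 0.45 (lung) on the log2 scale in the lowest of 10 groups of genes by GC content, and by -1.36 and -1.55 in the highest. Cd69 lies in the lowest group (35.9% GC), S1pr4 and Klf2 in the highest (59.3% and 61.6%), S1pr5 in the ninth (57.1%) and S1pr1 in the sixth (48.8%). Results that rest on these libraries are given with and without them. The mitochondrial share of counts moved with DT more widely, at 3.11% to 4.93% in 7 of the 8 DT libraries and 1.24% in the LN DT library numbered 4, against at most 2.57% after PBS, and its part was not tested beyond a fit with it as a covariate.

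**Figure D1:**
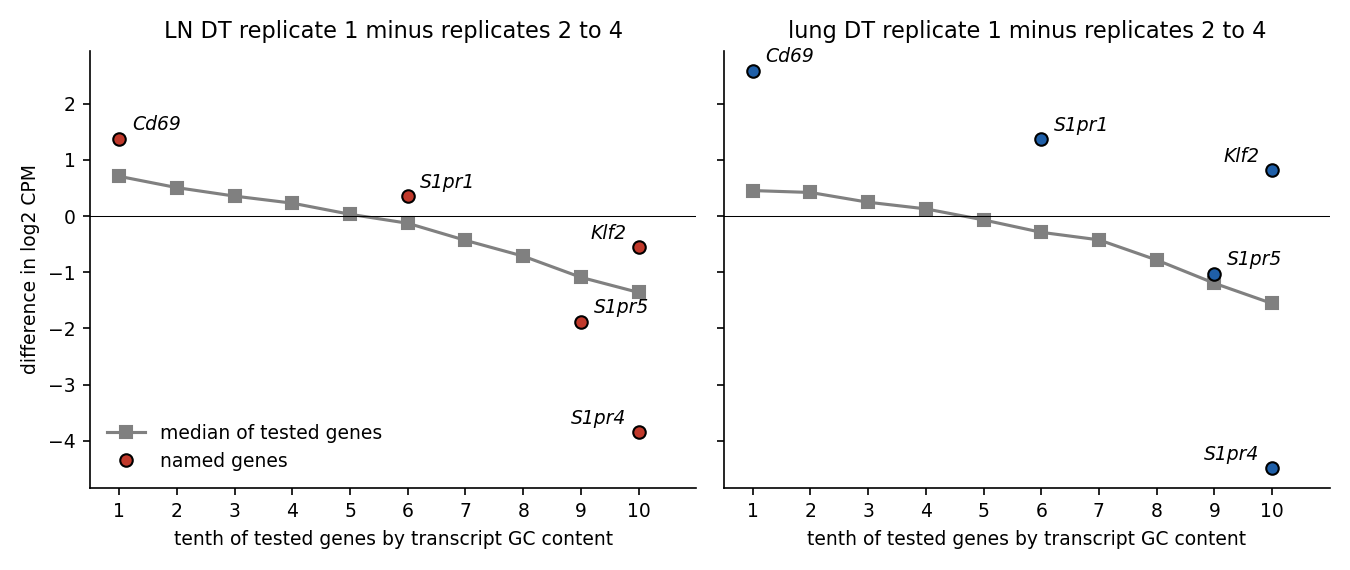
Median log2 difference (y axis) between the DT library numbered 1 and the other 3 DT libraries of the same tissue, over genes in 10 equal groups of rising GC content (x axis), for LN and lung. The medians fall from 0.71 to -1.36 in LN and from 0.45 to -1.55 in lung, and the named points place the 5 genes, of which S1pr4 lies lowest and Cd69 highest.

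S1pr1 was the gene that separated the groups. In LN NK cells after DT its level was 39.4, 37.2, 39.1 and 19.8 CPM, against 95.9, 77.5, 87.4 and 85.3 CPM in LN NK cells after PBS. In lung NK cells it was 42.3, 21.5, 17.9 and 11.003 CPM after DT and 18.3, 24.1, 22.4 and 14.4 CPM after PBS. Every LN library after PBS was above every other library in the study. Lung libraries after PBS lay below all LN libraries after PBS for 9.91% of all tested genes. Of the 4 LN libraries after DT, 3 lay above all lung libraries other than the lung DT library numbered 1. The means were 33.9 ± 9.43 CPM (LN, DT), 86.5 ± 7.55 CPM (LN, PBS), 23.2 ± 13.5 CPM (lung, DT) and 19.8 ± 4.36 CPM (lung, PBS; SD, n = 4 each). In order of level, LN after PBS came first and LN after DT second, and the lung groups, which overlapped each other, came last.

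Between the tissues after PBS, lung NK cells had 0.228 times the S1pr1 level of LN NK cells (log2 fold change -2.13 ± 0.37, SE; edgeR quasi-likelihood test, adjusted p = 0.00298). S1pr1 was the 1 gene of the 5 called in this comparison, in which 3.61% of all tested genes were called, and 0.904% of all tested genes were called lower in lung. The call held in all 28 alternatives run for it, over which the log2 fold change lay between -2.31 and -2.001. After DT the tissue difference was smaller, at -0.55 ± 0.36 (adjusted p = 0.427), and it was -0.94 (adjusted p = 0.0692) without the 2 DT libraries numbered 1.

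In LN, S1pr1 after DT was at 0.392 times its level after PBS, a log2 fold change of -1.35 ± 0.36 (edgeR quasi-likelihood test). The adjusted p over all tested genes was 0.172, so the difference did not pass the threshold of 0.05, at which 0.0646% of genes were called in this comparison and none of the 9 called genes was lower. The libraries of the 2 LN groups did not overlap, which held for 3.42% of all tested genes in this direction. By DESeq2, which called 323 of the 13940 genes, the same difference had an adjusted p of 0.0267. By limma-voom with sample quality weights, which called 3736 genes, the adjusted p was 2.74e-04. The lung DT library numbered 1 enters this comparison only through the shared fit. Without it 55 genes were called, and the S1pr1 difference was -1.42 with an adjusted p of 0.0393. Across all alternatives run it stayed between -1.84 and -1.17, with adjusted p from 2.74e-04 to 0.738. This comparison and that between the tissues after PBS share the LN libraries after PBS.

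In lung, S1pr1 differed by 0.23 ± 0.36 between DT and PBS (95% interval up to 1.01, adjusted p = 0.796), in a comparison where 0.108% of genes were called, and by -0.30 without the 2 DT libraries numbered 1. The DT effect in LN minus that in lung was -1.58 ± 0.51 (edgeR quasi-likelihood test, adjusted p = 0.839). In that comparison 0.00717% of genes, a single gene, were called. Averaged over the tissues, the DT effect on S1pr1 was -0.56 ± 0.25 (adjusted p = 0.194), and -0.87 (adjusted p = 0.0222) without the 2 libraries. In this averaged comparison 3.90% of genes (544) were called, and 1373 genes without the 2 libraries.

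**Figure D2:**
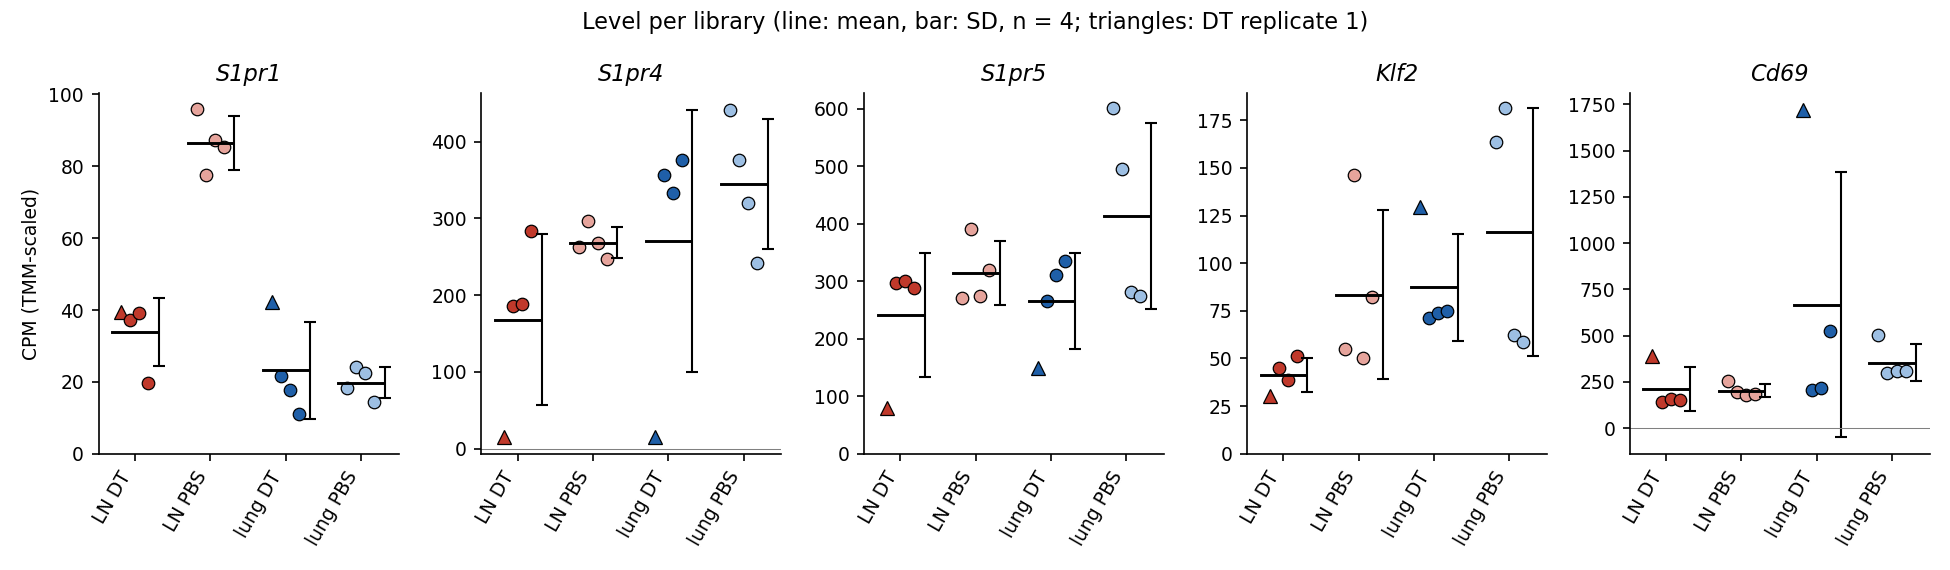
Level of each of the 5 genes in CPM (y axis, from 0) in every library, by group (x axis: LN DT, LN PBS, lung DT, lung PBS). Points are libraries, lines mark the mean and bars the SD, and triangles are the DT libraries numbered 1. The 4 LN PBS libraries stand at 77.5 to 95.9 CPM for S1pr1, above all 12 others, while for S1pr4 the DT libraries numbered 1 lie far below the rest.

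S1pr5, the S1P receptor best known for NK cell egress in mice, and S1pr4 were far above S1pr1. Per kilobase of exon, S1pr5 averaged 96.5 CPM (LN, DT), 126 CPM (LN, PBS), 106 CPM (lung, DT) and 165 CPM (lung, PBS), S1pr4 averaged 70.5, 113, 113 and 145 CPM in the same order, and S1pr1 averaged 11.1, 28.4, 7.61 and 6.50 CPM. The S1pr5 level in LN was 80.0, 297, 299.6 and 288 CPM after DT and 271, 391, 274 and 319.7 CPM after PBS. In lung it was 149, 266, 311 and 336 CPM after DT and 600.4, 495, 282 and 275 CPM after PBS. The groups overlapped in both tissues, and in each the DT library numbered 1 was the lowest. The DT effect was -0.38 ± 0.38 in LN (adjusted p = 0.733) and -0.64 ± 0.38 in lung (adjusted p = 0.445). Without the 2 DT libraries numbered 1 it was -0.09 and -0.51. Lung against LN gave 0.40 ± 0.38 after PBS (adjusted p = 0.682) and 0.14 ± 0.38 after DT (adjusted p = 0.888).

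S1pr4 showed how far 1 library can carry a mean. In LN it stood at 14.7, 186, 189 and 284 CPM after DT, against 262, 296, 268 and 247 CPM after PBS. In lung it stood at 15.6, 357, 334 and 376 CPM after DT, against 441, 377, 321 and 242 CPM after PBS. The DT libraries numbered 1 were below all others by more than 10-fold, while the other DT libraries overlapped the PBS libraries. The DT effect was -0.67 ± 0.69 in LN (adjusted p = 0.743) and -0.35 ± 0.69 in lung (adjusted p = 0.845), and -0.29 and -0.03 without those 2 libraries. Between the tissues S1pr4 differed by 0.36 ± 0.69 after PBS (adjusted p = 0.862) and by 0.68 ± 0.69 after DT (adjusted p = 0.646).

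Counts per kilobase of exon allow the receptors to be set against each other within a library. Of the reads per kilobase summed over the 3 receptors, S1pr1 made up 9.98 ± 10.3% in LN NK cells after DT and 10.8 ± 1.80% after PBS, and 5.86 ± 7.69% in lung NK cells after DT and 2.16 ± 0.611% after PBS (SD, n = 4). The DT means rest on the libraries numbered 1, where S1pr4 was nearly lost and the S1pr1 share was 25.3% (LN) and 17.4% (lung). In the other 3 LN libraries after DT the S1pr1 share was 2.71% to 6.06%, below the 8.33% to 12.6% of the LN libraries after PBS. In the other 3 lung libraries after DT it was 1.22% to 2.69%, within the 1.39% to 2.89% of the lung libraries after PBS or just under it. S1pr5 held 56.0 ± 6.08% (LN, DT), 46.9 ± 3.90% (LN, PBS), 51.6 ± 15.4% (lung, DT) and 51.3 ± 5.11% (lung, PBS), so that S1pr5 and S1pr4 together were most of the summed message of these 3 receptors in every library.

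**Figure D3:**
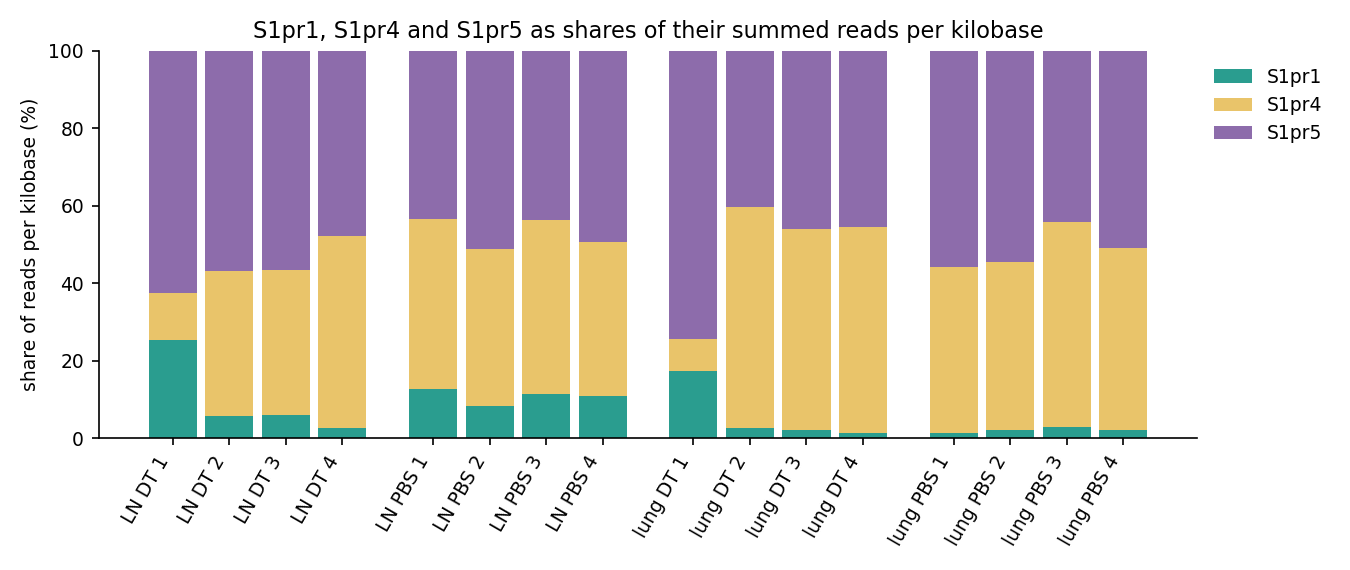
Share of S1pr1, S1pr4 and S1pr5 (stacked, y axis in percent) in their summed reads per kilobase in each of the 16 libraries (x axis, LN DT, LN PBS, lung DT, lung PBS). S1pr1 holds 8.33% to 12.6% in LN PBS libraries and 1.39% to 2.89% in lung PBS libraries, and 25.3% and 17.4% in the DT libraries numbered 1.

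S1pr2, which tends to oppose migration, had 19.9 ± 12.8 CPM in LN after DT and 27.3 ± 6.29 CPM in LN after PBS (adjusted p = 0.779), and 28.1 ± 8.81 CPM in lung after DT and 30.5 ± 9.61 CPM in lung after PBS (adjusted p = 0.935). S1pr3 had sums of 107 counts over the LN libraries after DT, 44 after PBS in LN, 0 after DT in lung and 2 after PBS in lung. Neither was called in any of the 6 comparisons. Of 11 tested genes that make, break down or carry S1P, 0 were called for DT in either tissue by edgeR, at 0 (LN) and 2 (lung) with an unadjusted p under 0.05, which 11.8% (LN) and 14.7% (lung) of all tested genes had. The median log2 fold change of this list was -0.10 in LN and 0.56 in lung, beside 0.08 and 0.09 over all tested genes. Between the tissues after PBS 1 of the 11 was called, Acer3, a ceramidase that frees sphingosine, with 64.0 ± 11.2 CPM in lung and 27.3 ± 2.35 CPM in LN (adjusted p = 0.0347). In that comparison 3.61% of all tested genes were called.

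Of the 123 tested genes in all 12 lists set around the 5 genes, Rgs1 was the single one called for DT in LN. In that comparison 0.0646% of all tested genes were called. RGS1 is a GTPase activator that shortens signalling from Gi-coupled receptors such as those for S1P and chemokines. It averaged 427 ± 181 CPM in LN NK cells after DT and 74.4 ± 17.9 CPM after PBS (log2 fold change 2.52, adjusted p = 0.0131). The libraries did not overlap, as for 5.05% of all tested genes in this direction. The call held in 23 of 28 alternatives and was lost with the mitochondrial share as a covariate, with the GC trend removed and without the LN PBS library numbered 1, 3 or 4 (adjusted p up to 0.205). In lung it averaged 1983 ± 1063 CPM after DT and 873 ± 150 CPM after PBS (1.18, adjusted p = 0.180). Averaged over the tissues Rgs1 rose by 1.85 (adjusted p = 0.00291) and Gnaq, a G-protein alpha subunit, by 1.17 (adjusted p = 0.0295), the 2 called of 19 genes of S1P receptor signalling and desensitisation. The average called 3.90% of all tested genes. In lung against LN after PBS the same list had 3 called, all higher: Rgs1 (3.55), Gnaq (1.51) and Rgs2 (803 ± 148 CPM in lung, 37.5 ± 8.56 CPM in LN, 4.42, adjusted p = 4.73e-06). Of all tested genes 2.70% were called higher there. In the averaged comparison the call of Rgs1 held in 26 of 27 alternatives and that of Gnaq in 16, and with the covariate no gene at all was called. S1pr1 and Rgs1 thus lay at opposite ends in the PBS groups, with S1pr1 lower and Rgs1 higher in lung.

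Klf2 was lower in LN after DT in its mean, without passing the test. It stood at 30.3, 44.8, 38.7 and 51.3 CPM in LN NK cells after DT and 55.1, 146, 50.2 and 82.5 CPM after PBS. In lung it stood at 129, 71.0, 74.1 and 74.9 CPM after DT and 164, 181, 62.4 and 58.6 CPM after PBS. The LN groups overlapped only in that the highest DT library, at 51.3 CPM, lay above the lowest PBS library, at 50.2 CPM. The lung groups overlapped widely, since 2 lung libraries after PBS were high and 2 were low. The DT effect was -1.02 ± 0.41 in LN (edgeR quasi-likelihood test, adjusted p = 0.337) and -0.41 ± 0.40 in lung (adjusted p = 0.658). By limma-voom, which called 3736 of the 13940 genes for DT in LN, the LN difference was -0.87 with an adjusted p of 0.0491. Averaged over the tissues it was -0.71 ± 0.29 (adjusted p = 0.148). Without the 2 DT libraries numbered 1 the effect was -0.89 in LN (adjusted p = 0.430), -0.74 in lung (adjusted p = 0.289) and -0.81 in the average (adjusted p = 0.0848). With the GC trend of each library removed it was -0.53 in LN (adjusted p = 0.734), -0.067 in the average and 0.40 in lung, so that for lung no direction can be given.

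After DT, Klf2 was higher in lung than in LN in every library, at 71.0 to 129 CPM in lung and 30.3 to 51.3 CPM in LN (log2 fold change 1.08 ± 0.41, adjusted p = 0.128, edgeR quasi-likelihood test). Libraries failed to overlap in this direction for 5.57% of all tested genes, and 6.75% of genes were called in this comparison in either direction. After PBS the tissues differed by 0.48 ± 0.40 (adjusted p = 0.637). Klf2 and S1pr1 thus did not share an order of groups: S1pr1 had its highest mean in LN after PBS, and Klf2 its highest mean in lung after PBS.

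Of 8 genes that act upstream of Klf2, among them the FOXO factors and the MEK5, ERK5 and MEF2 route, edgeR called 0 in either tissue for DT, with 2 at an unadjusted p under 0.05 in each tissue, a threshold that 11.8% (LN) and 14.7% (lung) of all tested genes passed. In LN these were Mef2a, at 138 ± 10.0 CPM after DT and 89.6 ± 16.6 CPM after PBS (0.63, adjusted p = 0.277), and Foxo3, at 19.7 ± 10.1 CPM after DT and 37.2 ± 8.72 CPM after PBS (-0.92, adjusted p = 0.354). Foxo3 was called in the average over the tissues (-0.997, adjusted p = 0.0480), a call that held in 11 of 27 alternatives and was lost, among others, with median-ratio size factors, on leaving out any 1 of the LN PBS libraries and with the GC trend removed. In lung Foxo3 stood at 39.4 ± 21.5 CPM after DT and 83.0 ± 13.3 CPM after PBS, and Foxo1, which activates Klf2 in T cells, at 101 ± 20.4 CPM after DT and 60.5 ± 19.7 CPM after PBS (adjusted p = 0.224 and 0.283). Of 10 other Krüppel-like factors 0 were called for DT in LN or lung, with 2 in each at an unadjusted p under 0.05. In lung against LN after PBS 4 were called, all higher, beside 2.70% of all tested genes called higher. They were Klf6 (1243 ± 497 CPM in lung, 380.4 ± 41.4 CPM in LN), Klf9, Klf12 and Klf16, with log2 fold changes of 1.71, 2.36, 1.42 and 1.69. Klf2 itself was not among those called.

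Of 9 other tested transcription factors of egress and residency, 0 were called for DT in LN or lung. Of all tested genes edgeR called 0.0646% (LN) and 0.108% (lung). An unadjusted p under 0.05 was found for 2 of the 9 in LN and 1 in lung, beside 11.8% and 14.7% of all tested genes. Zeb2, which drives late NK cell maturation, was higher in lung than in LN after PBS (312 ± 79.8 CPM in lung, 123 ± 52.9 CPM in LN, adjusted p = 0.0175). Tcf7, a factor of immature and memory-like lymphocytes, was lower there (30.3 ± 6.52 CPM in lung, 242 ± 40.5 CPM in LN, adjusted p = 3.65e-04). In LN after DT Tcf7 stood at 95.7 ± 43.3 CPM, a log2 fold change of -1.33 from PBS (adjusted p = 0.211 by edgeR). These LN libraries did not overlap, as for 3.42% of all tested genes in this direction. For DT in LN 4 of the 9 factors had a log2 fold change above 0 and 5 below.

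Cd69 varied most in the DT groups. In LN it stood at 389.6, 141, 156 and 153 CPM after DT and 253, 194, 181 and 183 CPM after PBS. In lung it stood at 1721, 205, 216 and 527 CPM after DT and 503, 298, 307 and 307 CPM after PBS. The DT libraries numbered 1 were the highest of their groups, and in LN the other 3 DT libraries lay below all 4 PBS libraries. The DT effect was 0.05 ± 0.53 in LN (adjusted p = 0.984) and 0.91 ± 0.53 in lung (adjusted p = 0.438). Without the DT libraries numbered 1 its sign turned, to -0.44 (adjusted p = 0.620) in LN and -0.24 (adjusted p = 0.662) in lung, so that no direction can be given for Cd69 after DT. Per kilobase of its longest coding transcript, Cd69 averaged 124 CPM (LN, DT), 120.1 CPM (LN, PBS), 395 CPM (lung, DT) and 209.7 CPM (lung, PBS), and Klf2, per kilobase of exon, 22.4, 45.2, 47.3 and 63.0 CPM in the same order.

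In lung against LN, Cd69 lay higher in every library after PBS, at 298 to 503 CPM in lung and 181 to 253 CPM in LN, a pattern that 9.25% of tested genes showed in this direction. The log2 fold change was 0.80 ± 0.53 (adjusted p = 0.507), and it passed the threshold by limma-voom (adjusted p = 0.0192) and with the PBS libraries alone (0.0269). Both of these settings called more genes in this comparison than the main fit did. After DT the log2 fold change of Cd69 was 1.67 ± 0.54 (edgeR quasi-likelihood test, adjusted p = 0.0753). With the replicate number as a block over all 16 libraries, the difference was 1.39 with an adjusted p of 0.0378. That block gives DT and PBS libraries of one number a shared term, although they cannot come from the same mice. Same-numbered DT libraries of LN and lung deviated from their groups together. With the block and the DT libraries alone the difference was 1.25 (adjusted p = 0.0791), and without the 2 DT libraries numbered 1 it was 1.06 (adjusted p = 0.0508).

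The ratio of Cd69 counts to S1pr1 counts inside each library does not depend on how libraries are scaled. It can still carry the GC trend, since the 2 genes differ in GC content (35.9% for Cd69, 48.8% for S1pr1). The Cd69 to S1pr1 ratios are given in the order of the library numbers. It was 9.89, 3.79, 3.99 and 7.74 in LN NK cells after DT and 2.64, 2.50, 2.07 and 2.14 after PBS. In lung it was 40.7, 9.51, 12.1 and 47.9 after DT and 27.5, 12.3, 13.7 and 21.3 after PBS. Each LN library after DT had a higher ratio than each LN library after PBS, also with the library numbered 1 set aside, and the lung groups overlapped. In the other LN libraries after DT, Cd69 itself stood at 141 to 156 CPM, below the 181 to 253 CPM of LN after PBS. Their higher ratio therefore came from the lower S1pr1 given above. The share of gene pairs that separate in this way was not examined. All lung ratios after PBS exceeded all LN ratios after PBS.

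**Figure D4:**
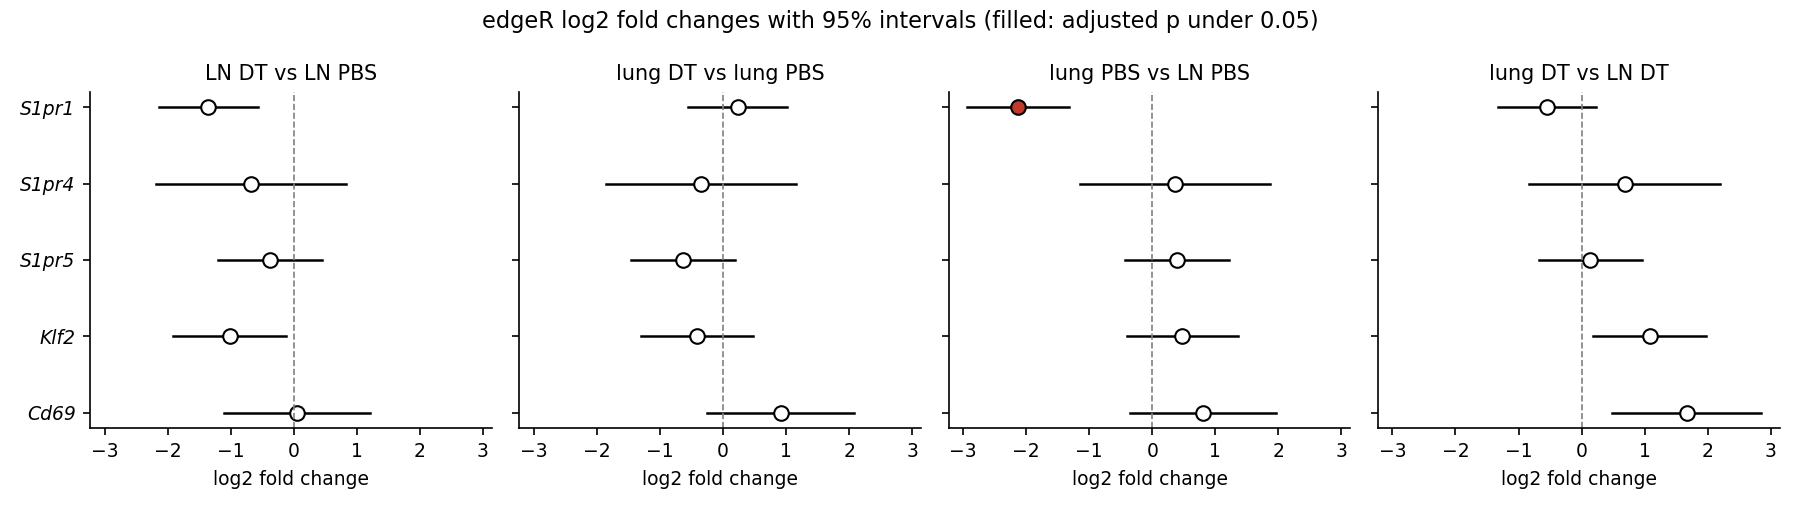
Log2 fold change (x axis) of each of the 5 genes in the comparisons of DT with PBS and of lung with LN, with 95% intervals from the edgeR model. The S1pr1 estimate for lung against LN after PBS, at -2.13, is the one estimate with an adjusted p under 0.05 and is drawn in red. Without passing that threshold, the intervals of S1pr1 and Klf2 for LN DT against LN PBS lie below 0 and those of Klf2 and Cd69 for lung DT against LN DT above 0.

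The 8 lectin-like genes examined as neighbours of Cd69 were all on chromosome 6, lying 80.79 kb (Clec2d) to 643.8 kb (Klrb1a) below it in coordinate, with 7 of them tested. For DT in LN and in lung edgeR called 0, with 3 and 4 at an unadjusted p under 0.05, beside 11.8% and 14.7% of all tested genes. Averaged over the tissues Klrb1c, the gene for NK1.1, fell by 0.85 on the log2 scale (adjusted p = 0.0323), called in 14 of 27 alternatives. Klrb1b was higher in lung than LN after PBS (419 ± 46.7 CPM in lung, 130.1 ± 11.1 CPM in LN, adjusted p = 0.00327). Clec2i and Klrb1f were lower in lung than LN after DT (-1.68 and -1.92). Of 7 tested genes whose products bind CD69 or travel with it, Slc3a2, the heavy chain of an amino acid transporter, was called in lung against LN after PBS (556 ± 80.2 CPM in lung, 269.7 ± 31.7 CPM in LN) and after DT (445 ± 63.7 CPM in lung, 184 ± 40.5 CPM in LN). S100a8 and S100a9, called there after DT as well (5.62 and 8.61), are abundant in neutrophils and monocytes.

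Genes that cells switch on soon after stimulation divided the tissues much more than Cd69 did. Of 14 such genes 11 were higher and 1 lower in lung than in LN after PBS, with a median log2 fold change of 3.82, beside -0.01 over all tested genes. In this comparison 2.70% of all tested genes were called higher and 0.904% lower. Nr4a2, an orphan nuclear receptor, stood at 1389 ± 271 CPM in lung and 12.9 ± 4.30 CPM in LN. Dusp1, a phosphatase of MAP kinases, stood at 3207 ± 2030 CPM in lung and 33.1 ± 18.8 CPM in LN. The one lower gene was Il2ra, for the IL-2 receptor alpha chain, at 1.99 ± 1.32 CPM in lung and 7.84 ± 0.820 CPM in LN. After DT the counts were again 11 higher and 1 lower, with a median of 4.33, beside 3.97% and 2.78% of all tested genes. For DT against PBS 0 of the 14 were called in LN or in lung by edgeR, with 2 at an unadjusted p under 0.05 in each (11.8% and 14.7% of all tested genes), and medians of 0.06 (LN) and -0.002 (lung). Il2ra was the one called in the average over the tissues (1.96, adjusted p = 0.0118), in 26 of 27 alternatives. It stood at 37.0 ± 12.7 CPM in LN after DT and 7.84 ± 0.820 CPM in LN after PBS (adjusted p = 0.108). These LN libraries did not overlap, as for 5.05% of all tested genes in this direction. Il2ra stood at 6.23 ± 2.85 CPM in lung after DT and 1.99 ± 1.32 CPM in lung after PBS (adjusted p = 0.175). The digestion of the lungs falls together with this difference, so their parts cannot be told apart, and this holds for Cd69, Rgs1, Rgs2 and Klf6 beside it.

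Type I interferon genes, which belong to a response known to raise CD69, ran the other way between the tissues. Of 11 tested genes 3 were lower in lung than in LN after PBS and 0 higher, with a median log2 fold change of -1.97. Usp18 stood at 14.8 ± 1.64 CPM in lung and 67.7 ± 38.2 CPM in LN, and Ifit1 at 1.86 ± 1.27 CPM in lung and 30.1 ± 19.2 CPM in LN. Averaged over the tissues Ifit1 fell after DT by 2.44 on the log2 scale (adjusted p = 0.0249), called in 20 of 27 alternatives. It stood at 13.03 ± 2.17 CPM in LN after DT and 30.1 ± 19.2 CPM in LN after PBS, and at 0.129 ± 0.177 CPM in lung after DT and 1.86 ± 1.27 CPM in lung after PBS. The list did not share this direction in lung: 8 of the 11 genes had a log2 fold change above 0 for DT in lung, with a median of 0.996, and 4 of 11 in LN, with a median of -0.18, and 0 were called in either tissue. An unadjusted p under 0.05 was found for 3 of the 11 in lung and 1 in LN, beside 14.7% and 11.8% of all tested genes. Usp18 stood at 37.5 ± 11.9 CPM in lung after DT and 14.8 ± 1.64 CPM in lung after PBS (adjusted p = 0.156).

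Of 16 other homing and retention receptors, edgeR called 0 for DT in LN or lung, beside 0.0646% and 0.108% of all tested genes. In LN 9 of them, and in lung 5, had an unadjusted p under 0.05, beside 11.8% and 14.7% of all tested genes. In each tissue 6 had a log2 fold change above 0 and 10 below. Ccr7, which holds lymphocytes in lymph nodes against S1P, stood at 23.3 ± 5.59 CPM in LN after DT and 63.2 ± 22.1 CPM in LN after PBS (adjusted p = 0.423). The Ccr7 libraries did not overlap, as for 3.42% of all tested genes in this direction. Averaged over the tissues Itgb1, an integrin chain, fell by 1.06 on the log2 scale (adjusted p = 0.0405), called in 14 of 27 alternatives. Between the tissues after PBS edgeR called 2.70% of all tested genes higher in lung and 0.904% lower. Of the 16 receptors 2 were higher in lung, Cxcr4 (97.7 ± 63.0 CPM in lung, 17.3 ± 13.6 CPM in LN) and Cx3cr1 (74.4 ± 49.4 CPM in lung, 9.49 ± 5.31 CPM in LN). Lower in lung were Cxcr6 (6.16 ± 1.94 CPM in lung, 109.6 ± 36.1 CPM in LN), Cxcr3 (20.8 ± 5.51 CPM in lung, 321 ± 68.6 CPM in LN) and Ccr2 (288 ± 58.3 CPM in lung, 661 ± 79.7 CPM in LN). All 9 maturation markers of NK cells were tested, and 5 were higher in lung, led by Klrg1 (1068 ± 101 CPM in lung, 179 ± 47.4 CPM in LN), with 3 lower, led by Il7r (32.6 ± 12.7 CPM in lung, 403 ± 103 CPM in LN). In this list 0 were called for DT in LN or lung, with 4 and 2 at an unadjusted p under 0.05. In LN 4 of the 9 had a log2 fold change above 0 and 5 below, and in lung 0 above and 9 below. Klrg1 stood at 386 ± 67.1 CPM in LN after DT and 179 ± 47.4 CPM in LN after PBS. Its log2 fold change was 1.11 (adjusted p = 0.177 by edgeR). The Klrg1 libraries did not overlap, as for 5.05% of all tested genes in this direction. Ly6c2, a marker of mature NK cells, fell in the average over the tissues by 1.02 on the log2 scale (adjusted p = 0.0208, called in 25 of 27 alternatives). It stood at 158 ± 39.2 CPM in LN after DT and 234 ± 96.7 CPM in LN after PBS. Ly6c2 stood at 269 ± 39.4 CPM in lung after DT and 746 ± 244 CPM in lung after PBS (adjusted p = 0.0680). These lung libraries did not overlap, as for 4.53% of all tested genes in this direction. Of the genes named as called in lung against LN after PBS, Acer3, Gnaq, Klf12, Klf16, Zeb2, Il2ra, Cxcr4, Cx3cr1 and Ccr2 each lost the call in 3 to 13 of 28 alternatives.

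**Figure D5:**
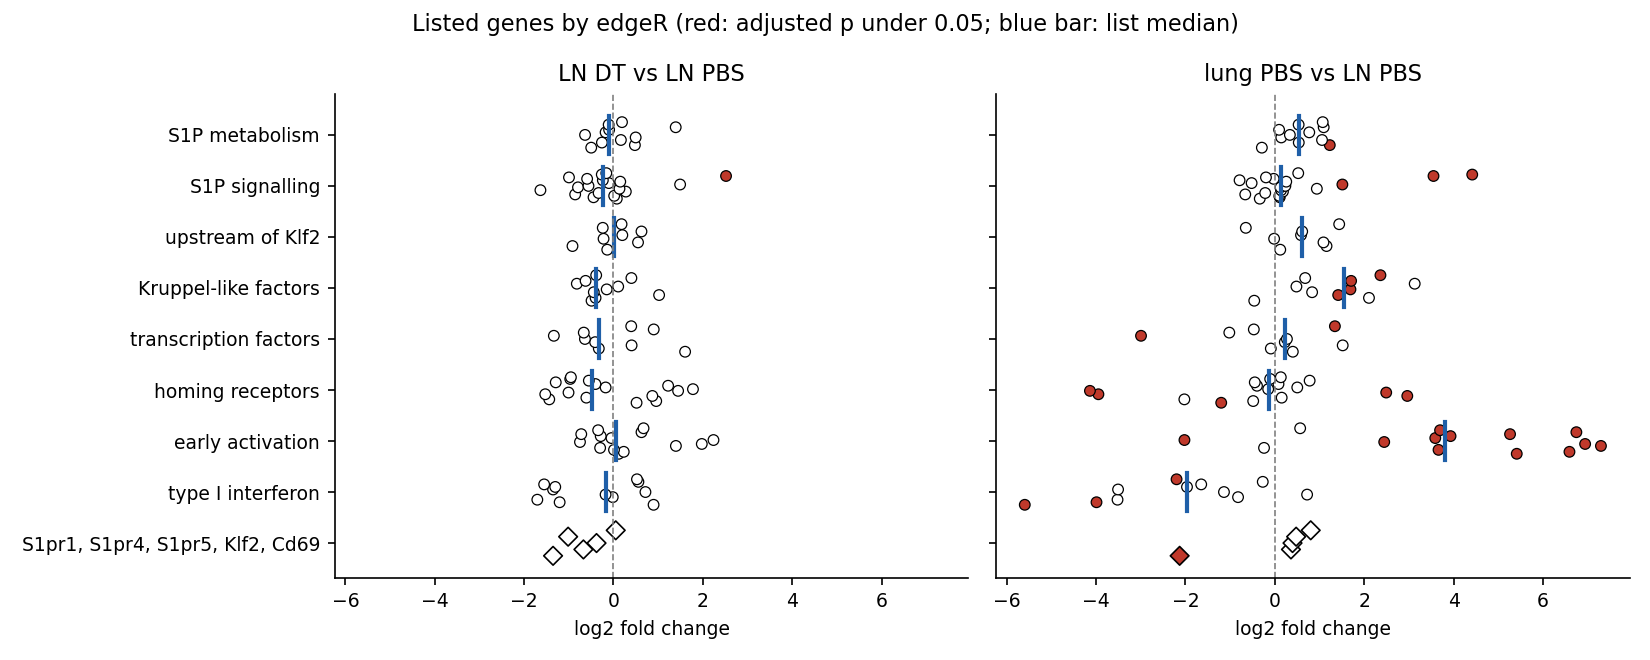
Log2 fold change (x axis) of each tested gene in 8 of the lists and of the 5 genes themselves (rows), for LN DT against LN PBS (left) and lung PBS against LN PBS (right); filled red marks are genes with an adjusted p under 0.05 and blue bars the list medians. Early activation genes lie far to the right in lung against LN, with a median of 3.82, and around 0 for DT in LN, with a median of 0.06, where Rgs1 is the one red point.

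For each of the 5 genes the closest patterns over the 16 libraries were sought among 8365 other genes, by the root mean square difference of centred log2 CPM. S1pr1 was closest to Abca1, a cholesterol transporter, at 0.40, beside 0.96 for the spread of S1pr1 itself. Abca1 averaged 30.8 CPM (LN, DT), 63.4 CPM (LN, PBS), 19.97 CPM (lung, DT) and 17.6 CPM (lung, PBS). Cep19 (0.51) and Faap20 (0.57) came next. S1pr4 was closest to Slc48a1 (0.34), Dok2 (0.40) and Rbm38 (0.42), and S1pr5 to Rin3 (0.24), Adgre5 (0.29) and Actg1 (0.30). Klf2 was closest to Map7d1, Ahsa1 and Snx18 (0.41, 0.41 and 0.42), and Cd69 to Wbp5 (0.40), Tra2b (0.44) and Ubb (0.45). The libraries share depth and GC differences, and a like pattern is a description of these libraries.

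The sort could hold other cells that express the 5 genes, so summed markers were read in every library. NK cell markers dominated, at 40216 CPM (LN, DT), 22905 CPM (LN, PBS), 33792 CPM (lung, DT) and 35363 CPM (lung, PBS) in the mean, with Ncr1, the gene for the sorted NKp46, at 2457 to 7917 CPM. All 10 NK markers were found in every group. The count of Foxp3 never exceeded 9, which in sorted NK cells says nothing of the depletion. In bulk samples, fewer cells of a type and less RNA per cell cannot be told apart.

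B and T cells carry S1pr1, and their markers moved with some of the groups. The 6 B cell markers summed to 141 to 882 CPM in LN after DT and 63.0 to 113 CPM in LN after PBS (exact two-sided permutation test, p = 0.0286, the smallest that 4 against 4 libraries allow, adjusted p = 0.126 over 44 tests). They were thus higher in the LN group in which S1pr1 was lower. The 8 T cell markers summed to 278 to 462 CPM in LN after DT and 326 to 420 CPM in LN after PBS, with overlap. In lung after PBS they summed to 28.6 to 71.6 CPM, below the LN libraries after PBS (exact permutation p = 0.0286, adjusted p = 0.126), alongside the lower S1pr1 there. Cd3g, for a CD3 chain, led both sums, at 209.8 of 372.5 CPM in the LN PBS mean and 26.1 of 50.3 CPM in the lung PBS mean. The cells were sorted as CD3-, and which cells gave these reads was not tested. The lung DT library numbered 1, with the highest S1pr1 in lung, also had the highest T cell sum in lung, 372 CPM, against 63.7 to 94.3 CPM in the other lung DT libraries. Plasma cell markers summed to 46.9 to 348 CPM in LN after DT and 2.30 to 9.62 CPM in LN after PBS (exact permutation p = 0.0286, adjusted p = 0.126), and dendritic cell markers to 29.2 to 299 CPM in LN after DT and 14.7 to 36.3 CPM in LN after PBS (exact permutation p = 0.0857, adjusted p = 0.198). The NK cell markers themselves summed to 30484 to 60988 CPM in LN after DT and 19892 to 24811 CPM in LN after PBS (exact permutation p = 0.0286, adjusted p = 0.126). Gzma alone averaged 20537 CPM of this sum in LN after DT and 6282 CPM in LN after PBS. Of the 10 NK cell markers, 7 had a log2 fold change above 0 and 3 below, with 0 called. Their median was 0.20, beside 0.08 over all tested genes, so the sum alone does not show a higher NK cell share. The part of T, B, plasma and dendritic cells and of the NK cell share in the S1pr1 and Klf2 values was not tested.

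Endothelial cells express S1pr1 and Klf2 strongly. Their 12 markers summed to 74.4 to 135 CPM (LN, DT), 85.4 to 169.8 CPM (LN, PBS), 80.8 to 216 CPM (lung, DT) and 89.1 to 98.5 CPM (lung, PBS), nearly all of it Pecam1, which leukocytes express too. Without Pecam1 the sums were 1.199 to 6.50 CPM, 0.946 to 7.75 CPM, 11.8 to 55.1 CPM and 4.77 to 29.7 CPM in the same order. Cdh5, which defines endothelium, had 19, 0, 0 and 21 counts over the 4 libraries of each group in that order. The part of endothelial cells in the S1pr1 and Klf2 values was not tested. Macrophage and monocyte markers were high in lung, at 237 to 10409 CPM after DT and 266 to 3259 CPM after PBS, against 89.6 to 229.7 CPM (DT) and 34.9 to 319 CPM (PBS) in LN. Their part in the lung values of Cd69, Klf2 and S100a8 was not tested.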

How the data were processed

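RNA of sorted NK cells was measured in 16 libraries, 4 per group. The authors deposited raw read counts per gene. Per the submitters' processing notes, HISAT2, HTSeq and GRCm38 were used; versions are absent from the notes. All values were whole numbers and every column was used. Symbols come with the table, gene positions from a GRCm38 annotation and promoters from RefSeq.

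Counts were filtered with filterByExpr by group (minimum count 10, minimum total 15), scaled by TMM, and a robust quasi-likelihood model was fitted with edgeR 4.0.16 under R 4.3.3, as 4 group means with 12 residual degrees of freedom. A gene was called at 0.05 after Benjamini-Hochberg adjustment across the 13940 genes tested. CPM values use TMM-scaled library sizes, and fold changes have the SE implied by the F statistic. The design text speaks of biological replicates, and each library was taken as one. For marker sums, exact permutation tests (two-sided) were used. The fit was tested on simulated data with 200 changed genes. DESeq2 1.42.0 and limma 3.58.1 (voom) were alternatives.

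The 5 genes, the lists and the rules were chosen with earlier results of these data known. From each list and comparison the rule took the called genes, or the 4 of smallest p where more than 4 were called. Where none was called it took the 2 of smallest p. Not all of the genes that the rule gives are named in the text. Ccr7, the Cxcr4 and Il2ra values in lung against LN after PBS, and Clec2d and Klrb1a for their positions, fall outside this rule. They were chosen after their values were seen. A gene that the rule names is not reported here. Deviations of same-numbered DT libraries of LN and lung from their group means correlated at 0.588, 0.346, 0.395 and 0.294, and those of PBS libraries at -0.034, 0.365, 0.013 and -0.035. Differently numbered DT libraries reached 0.368 (LN 2 with lung 3) and 0.332 (LN 3 with lung 2), so the numbers are only partly set apart. Libraries of unlike treatment, which cannot share a mouse, reached 0.485 (LN DT 4 with lung PBS 1) and 0.339 (LN DT 1 with lung PBS 4). Every same-numbered DT pair exceeded 0.1, but these values cannot tell which libraries share a mouse, and the labels do not say. Pairing by number entered only the alternatives with a replicate block, and not the main fit. The alternatives were other scalings, filters, tools, covariates and the omission of libraries. GC trend removal, the block with DT libraries alone and the Cd69 level by its longest coding transcript were added after seeing the data.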

Additional observations from a re-analysis of the deposited data

Results flagged for a closer look

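Of the 20 groups of 4 libraries formed by the 5 genes, 6 held a library far from the other 3 by Dixon's criterion, where chance gives about 1 in 20. Among these 6, 4 were DT libraries numbered 1. S1pr4 had 15.6 CPM in the lung DT library numbered 1, the lowest of its group. S1pr5 had 80.0 CPM in the LN DT library numbered 1, also the lowest. Klf2 had 129 CPM in the lung DT library numbered 1 and Cd69 had 389.6 CPM in the LN DT library numbered 1, each the highest. The 2 libraries also had the Malat1 levels and GC trend given above, whose part in these values was not tested. Outside them, S1pr1 was lowest in the LN DT library numbered 4, at 19.8 CPM, and Cd69 was highest in the lung PBS library numbered 1, at 503 CPM.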

How the results depend on the processing

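The lower S1pr1 in lung against LN after PBS was called under all 28 alternatives run for it. Over the alternatives that do not leave out single libraries, the genes called for DT in LN (9 in all) numbered 23 with no filter, 323 by DESeq2, 3736 by limma-voom, 41 with the compared groups alone, 0 with a covariate for the mitochondrial share and 24 without both DT libraries numbered 1. For DT in lung (15) they numbered 456, 435, 0, 1 and 474 under DESeq2, limma-voom, the compared groups alone, the covariate and that omission, and 42 with the GC trend removed. For the average (544) they numbered 1606 by DESeq2, 3781 by limma-voom, 0 with the covariate and 1373 with the omission. For the difference of the DT effects (1) they numbered 0 with the replicate block, 19 by DESeq2 and 0 by limma-voom. For lung against LN after PBS (503) they numbered 1179, 2296, 1425 and 1362 by DESeq2, limma-voom, the compared groups alone and the omission. After DT (941) they numbered 1733, 1804 and 322 by the first 3 of these, and 515 with the replicate block and DT libraries alone.

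Of the 5 genes, 1 was called for DT in LN by DESeq2 (S1pr1) and 2 by limma-voom (S1pr1 and Klf2). In the average 1 (S1pr1) was called by limma-voom and with the omission. For lung against LN after PBS 2 (S1pr1 and Cd69) were called by limma-voom and with the compared groups alone. After DT 1 (Cd69) was called with the replicate block, by DESeq2 and with the GC trend removed. The replicate block changed no other call among the 5 genes.

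Log2 fold changes that turned sign were those of Cd69 for DT in LN: -0.040 with total counts alone, -0.13 with the replicate block, -0.32 by limma-voom, -0.30 with the covariate, -0.44 with the omission and -0.79 with the GC trend removed. With the covariate S1pr4 and S1pr5 in LN turned to 0.060 and 0.15, S1pr1, S1pr4 and Klf2 in lung to -0.28, 0.57 and 0.12, and S1pr4 and S1pr5 in the average to 0.31 and 0.067. By limma-voom S1pr1 and Cd69 in lung turned to -0.15 and -0.29 and Cd69 in the average to -0.31. With the omission they turned to -0.30, -0.24 and -0.34. With the GC trend removed Klf2 in lung turned to 0.40 and Cd69 in the average to -0.19. The causes were not tested. With total counts alone the median of all genes in lung against LN after PBS moved to -0.18.

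Leaving out each library in turn, genes called ranged from 0 to 122 (DT in LN), 1 to 129 (DT in lung), 89 to 1334 (average), 0 to 3 (difference of effects), 268 to 992 (lung against LN after PBS) and 471 to 1554 (after DT), and of the 5 genes from 0 to 1 for DT in LN, in the average and in lung against LN after DT. Cd69 ranged from -0.49 to 0.20 (DT in LN), -0.21 to 1.203 (DT in lung), -0.11 to 0.63 (average) and -1.34 to 0.20 (difference). S1pr1 for DT in lung ranged from -0.28 to 0.40, S1pr4 in the difference from -0.71 to 0.070 and S1pr5 in lung against LN after DT from -0.13 to 0.37. The lung DT library numbered 1 turned S1pr1 and Cd69 for DT in lung. Without it S1pr1 was called for DT in LN (-1.42) and in the average (-0.85). Cd69 in lung against LN after DT was called without the LN DT library numbered 1 (2.17) and without the lung DT libraries numbered 2 or 3 (1.96 each).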
